A study of Arabidopsis thaliana with 30 samples.

Results

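Line 4OX of Arabidopsis thaliana overexpresses MCU4 (AT4G36820), a gene of the mitochondrial calcium uniporter family, and its response to antimycin A (AA) was measured by RNA sequencing in 6 of the 30 libraries of the series. The 3 libraries labelled 4OX_AA came from whole seedlings of 4OX given 50 µM AA for 5 h by the labels, and the 3 labelled 4OX_CK from seedlings of 4OX given the solvent DMSO. All were 10 days old, in the Col-0 background, and carried MCU4 cDNA fused to YFP behind the constitutive 35S promoter. The study's methods give a shorter treatment, after a night in liquid medium in the dark, and their account of the RNA sequencing does not list 4OX among its plants. Whether 4OX is 1 line or several is not given in the sources used here. The 5 genotypes were Col, the overexpressors 2OX, 4OX and 6OX of MCU2, MCU4 and MCU6, and a sextuple knockdown line of the MCU genes, and the Col and 6OX libraries with and without AA (3 of each) were used here only for comparison. Of 23612 genes in the table of 4OX with and without AA, all 23315 with a mean value of 1 or more were tested.

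Antimycin A blocks complex III of the mitochondrial electron transport chain. In plants this is known to set off mitochondrial retrograde signalling, in which the membrane-bound factor ANAC017 and its relatives raise nuclear genes for alternative respiration and detoxification, with AOX1A as the classic marker. The uniporter is the channel through which calcium enters mitochondria, and MICU is its calcium-sensing regulator.

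The headings of the deposited tables contradict each other for these libraries. A second table sets 4OX without AA against Col. Its 3 columns headed 4OX_CK held the same reads as the 3 columns headed 4OX_AA here, in 23255 of 23255 shared genes for each pair with the same replicate number. Other pairs of columns had equal reads in 1.64% to 2.18% of genes. The same 3 libraries were therefore headed AA in one table and CK in the other, and the sign of every difference below depends on which heading is right. Differences are given as the headings of the AA table put them, AA-labelled minus CK-labelled, and no library was relabelled.

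MCU4 was read in all 6 libraries. Values are the read counts of a gene divided by a size factor for each library, and differences were tested with limma on log2(value + 1), with Benjamini-Hochberg adjustment over all genes. The value of MCU4 was 12425, 12191 and 10808 in the libraries labelled CK and 4868, 4494 and 4722 in those labelled AA. All 6 were far above Col, where the second table lists 5.05, 3.74 and 0.946 beside 5187, 4850 and 5060 for the libraries it heads 4OX_CK. The overexpressed gene was thus present in both groups. Even so, its value differed between them by -1.33 ± 0.10 (SE, n = 3 against 3) on the log2 scale, with a limma adjusted p of 6.9e-05. Reads of the transgene and of the native gene cannot be told apart in a value per gene.

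AOX1A (AT3G22370), the alternative oxidase that AA is known to raise, went against the headings. It stood at 28023, 27731 and 24129 in the libraries labelled CK and at 8825, 10536 and 7812 in those labelled AA. The groups did not overlap, and the difference was -1.56 ± 0.14 (limma adjusted p = 0.00014). AOX1D (AT1G32350), a stress-inducible alternative oxidase, stood at 4860, 3158 and 3639 in the CK-labelled and 456, 265 and 358 in the AA-labelled libraries. Its difference was -3.44 ± 0.22 (limma adjusted p = 2.9e-05).

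**Figure D1:**
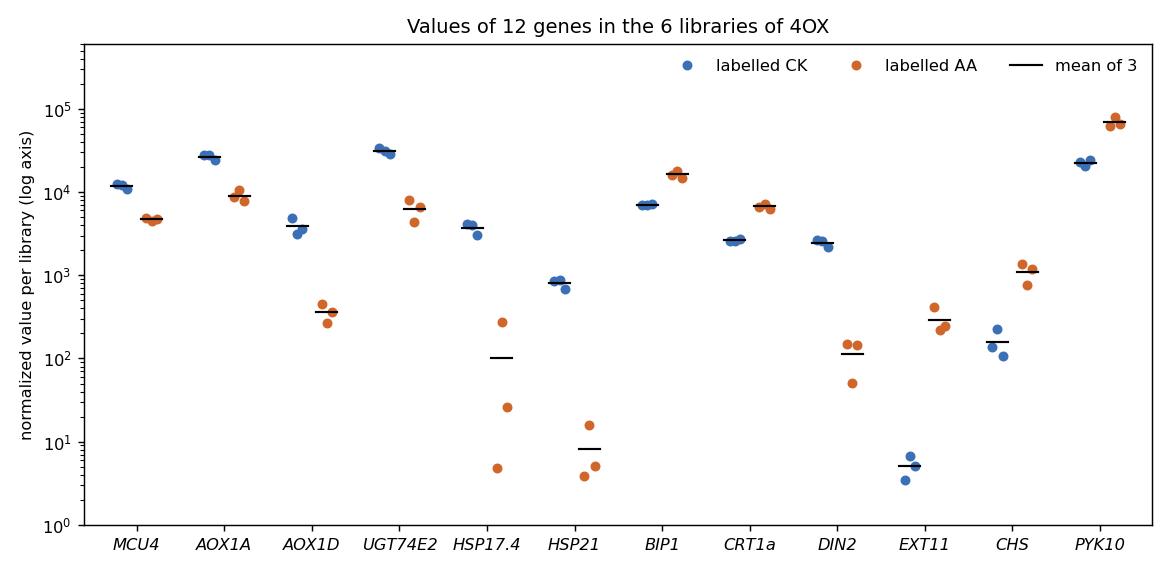
Normalized values (log axis) of 12 genes in each of the 6 libraries of 4OX, with points for libraries and black bars for the mean of 3. The genes MCU4, AOX1A, AOX1D, UGT74E2, HSP17.4, HSP21 and DIN2 are lower in all 3 libraries labelled AA, and BIP1, CRT1a, EXT11, CHS and PYK10 are higher in all 3.

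In units of 1e6 recovered reads, depth ran from 30.08 to 39.07 in the libraries labelled CK and from 27.39 to 32.52 in those labelled AA. Organelle genomes took 0.0529% to 0.0646% of reads in the first group and 0.0421% to 0.123% in the second. On log2 values, libraries of a group correlated at 0.968 or more and libraries of different groups at 0.9456 or less. The AA-labelled replicate 2 had the lowest correlations within its group, 0.968 with both others, and stood apart in several of the gene groups described below. Leaf markers (RBCS1A, LHCB3, CAB2, RCA), root markers (PYK10, SHR, SCR, CASP1, MYB36, WOX5, PHT1-1), guard cell markers (FAMA, MYB60) and phloem markers (SUC2, APL) were all detected in these whole seedlings. Of the seed storage markers, CRU3 and SESA1 had no read in the libraries labelled AA, and CRA1 did not exceed 41.2 in any library. The pollen markers VGD1 and VGDH1 were not analysed here.

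Genes on both sides differed between the groups. Of 23315 genes tested, 5988 (25.7%) passed both thresholds, an adjusted p below 0.05 in limma and a change of over 1.5-fold, 2986 (12.8%) of them higher and 3002 (12.9%) lower in the libraries labelled AA. A fold over 4 was reached by 684 of the higher and 525 of the lower genes. The 2 groups did not overlap in 5923 of the 5988, and in 11449 (49.1%) of all genes tested. The 25.7% called over all genes, 12.8% higher and 12.9% lower, is the background of every list count below. With scaling by library totals the median of all genes moved from 0.02 to 0.27, and the split became 5157 higher and 1979 lower. Relative to the median of all genes, no list described below changed the sign of its median under that scaling, and the largest move of a list's relative median was 0.12. With AA-labelled replicate 2 left out, 6725 genes were called, of which 5543 were among the 5988.

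**Figure D2:**
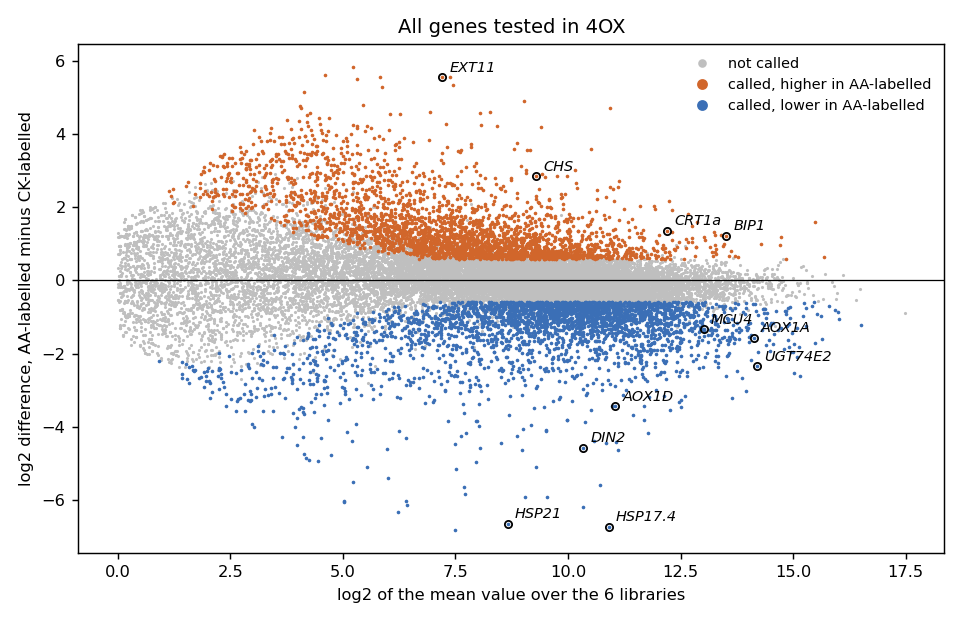
Log2 difference, AA-labelled minus CK-labelled, against the log2 of the mean value over the 6 libraries for all 23315 genes tested. Called genes lie on both sides, 2986 above and 3002 below 0, and HSP17.4 and HSP21 lie near the bottom and EXT11 near the top.

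The libraries labelled AA were lower in most genes of the mitochondrial dysfunction stimulon, the set of nuclear genes known to rise when respiration is blocked. Of its 22 members, 18 were called lower and 1 higher, and the median log2 difference was -1.33, beside 0.02 over all genes. UGT74E2, a glucosyltransferase of the auxin indole-3-butyric acid, had values of 33490, 31298 and 28805 in the libraries labelled CK. In those labelled AA it had 7952, 4403 and 6624. The groups were far apart, with a difference of -2.34 ± 0.21. GSTU25, a tau-class glutathione transferase, had 9218, 4698 and 5957 against 424, 302 and 344, and its neighbour GSTU24 had 19318, 16441 and 16155 against 3506, 3364 and 3204. These were differences of -4.17 ± 0.23 and -2.36 ± 0.11, and the pair are close copies that could share reads. CYP81D8, a cytochrome P450 of stress responses, fell from 23616, 26999 and 19627 to 4925, 3589 and 4207. The sulfotransferase SOT12 (-1.74 ± 0.13) and the auxin transporter ABCB4 (-1.71 ± 0.18) were lower as well. Not called were OM66 (AT3G50930), NDB4 and the efflux protein gene AT2G04070, where the AA-labelled replicate 2 lay within the range of the CK-labelled libraries or above it.

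One stimulon member stood on the other side. The gene AT4G26780, a mitochondrial GrpE-like co-chaperone here called MGE2, had 1036, 732 and 820 in the libraries labelled CK and 1163, 1593 and 1280 in those labelled AA. The difference was 0.64 ± 0.16 (limma adjusted p = 0.016), and without AA-labelled replicate 2 or CK-labelled replicate 2 it was 0.52 or 0.53 and no longer called, nor was it without CK-labelled replicate 3.

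The sequence before the stimulon genes was searched for the mitochondrial dysfunction motif, the site that ANAC013 and ANAC017 are known to bind. The words searched were CTTGNNNNNCAAG and CTTGNNNNNCACG on both strands, in the 250 bases before each annotated gene start in TAIR10.1 (RefSeq). Of 22 members 5 held a match, or 22.7%, and of 27432 promoters of protein-coding genes 328 did, or 1.20%. Among promoters of genes called lower 1.80% held it, and among those called higher 0.579%. Stretches of the 3 called members whose window overlaps no exon of another gene are shown, 5′ to 3′ on the strand of the gene, with the fixed bases of the motif in capitals.
HSP23.6-MITO: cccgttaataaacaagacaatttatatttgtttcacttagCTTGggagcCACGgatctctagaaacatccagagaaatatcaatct
AT2G04050: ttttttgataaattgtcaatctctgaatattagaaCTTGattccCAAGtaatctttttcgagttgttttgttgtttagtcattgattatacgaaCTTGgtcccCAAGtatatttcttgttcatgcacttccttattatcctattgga
AT2G21640: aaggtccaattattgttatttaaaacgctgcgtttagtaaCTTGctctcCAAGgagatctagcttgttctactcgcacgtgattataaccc
They lie at chr4:12916840-12916925 on the plus strand, chr2:1339572-1339718 on the minus strand and chr2:9254287-9254377 on the plus strand. The match nearest to the start ends 33, 143 and 38 bases before it.

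HSP23.6-MITO, a small heat shock protein of the mitochondrial matrix, had 2582, 2741 and 2081 in the libraries labelled CK and 109, 381 and 114 in those labelled AA, a difference of -3.86 ± 0.42. AT2G04050, a MATE efflux protein with 2 copies of the motif, had 53124, 48392 and 50430 against 23906, 30356 and 23891. AT2G21640, annotated as a marker of oxidative stress, had 11288, 7541 and 8697 against 4096, 5651 and 4600. In all 3 genes no AA-labelled library reached the lowest CK-labelled one. AT2G04050, AT2G04040 and AT2G04070 are close copies, so that reads could be shared among them.

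Regulators of retrograde signalling were lower too. Of 8 tested, 7 were called lower, with a median of -0.90. ANAC053, a NAC factor of the proteasome and oxidative stress responses, had 4462, 4131 and 3556 against 1049, 1152 and 895 (-1.97 ± 0.13). ANAC013 had 5850, 5002 and 5357 against 2314, 3047 and 2307 (-1.09 ± 0.13). WRKY15 followed with -1.42 ± 0.19. RCD1, which holds ANAC013 and ANAC017 in check, had 33189, 32384 and 31701 against 17220, 18951 and 17870. ANAC017 itself, which is activated by release from the endoplasmic reticulum membrane, had 2203, 2081 and 1987 against 1755, 1892 and 1810. Its difference of -0.20 ± 0.09 was not called (limma adjusted p = 0.13). ANAC016 overlapped between groups in its AA-labelled replicate 2 and was called with a limma adjusted p of 0.033, which did not hold without AA-labelled replicates 1 or 3 or CK-labelled replicates 1 or 2.

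Other routes of alternative respiration moved less evenly. AOX1B had 425, 288 and 306 against 143, 138 and 129 (-1.29 ± 0.19), and AOX1C had 65.3, 44.2 and 52.2 against 52.7, 110 and 79.6, a difference of 0.53 ± 0.33 that was not called. Of 7 alternative NAD(P)H dehydrogenases, which pass electrons to ubiquinone without pumping protons, 2 were called, both lower. NDA2 had 2157, 1934 and 1561 against 723, 764 and 613, and NDB2 had 6332, 4417 and 5444 against 3081, 3554 and 2378. NDA1 had 901, 724 and 762 against 451, 1050 and 554, and only its AA-labelled replicate 2 was above the CK-labelled range. Without that library NDA1 was called too, at -0.66. Of 5 uncoupling proteins and dicarboxylate carriers, UCP2 alone was called, higher at 0.77 ± 0.19, and that call was lost without AA-labelled replicate 3 or without CK-labelled replicates 1 or 2 (limma adjusted p from 0.057 to 0.063). DIC1 and DIC2 were called higher with library totals (0.70 and 0.67), and DIC3 lower without AA-labelled replicate 2 (-1.09).

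Complex III, the target of the drug, showed no call. Of 16 nuclear genes for its subunits and for cytochrome c, limma, edgeR and DESeq2 each called 0, where limma called 25.7% of all genes, and 1 had an unadjusted p under 0.05. Their differences ran from -0.36 to 0.19. The lowest adjusted p was that of CYTC-1 (AT1G22840), one of the cytochrome c genes, with 13284, 13096 and 11274 against 9264, 11139 and 9037 (limma adjusted p = 0.061). Of 9 mitochondrial proteases the same tools also called 0, with 2 at an unadjusted p under 0.05 and differences from -0.32 to 0.47. Of 125 cytosolic ribosomal proteins, a list taken from the study, 1 was called. It was RPL10C, with 24859, 25885 and 19144 against 9291, 10465 and 8727, and the median of the list was -0.004. With scaling by library totals 8 ribosomal protein genes were called higher and 1 lower.

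Mitochondrial chaperones and import proteins had calls on both sides, 2 of 11 and 5 of 24, where 25.7% of all genes were called. Among the chaperones, MGE2 was called higher and CLPB4, a disaggregase, lower, with 3807, 4193 and 3975 against 1190, 2146 and 1355. The chaperonins HSP60, HSP60-2 and HSP60-3A differed by 0.12 to 0.20 and were not called. Without AA-labelled replicate 2 the chaperones called lower became 3, with mtHsc70-1 (-0.65) and MGE1 (-0.69) added, and MGE2 was lost. Of the import proteins 2 were called higher and 3 lower. TOM20-1, higher at 1.42 ± 0.45, lost its call with any library left out except CK-labelled replicate 3. TIM23-1, lower at -0.59 ± 0.14, lost its call in edgeR (-0.57) and with library totals (-0.33). It also lost it without AA-labelled replicates 2 or 3 or CK-labelled replicate 1. TIM17-3, a channel subunit of the inner membrane translocase, had 108, 93.0 and 129 against 305, 240 and 289 (1.34 ± 0.20). TIM44-1, which ties the import motor to that channel, had 69.9, 74.9 and 44.6 against 13.4, 19.3 and 8.27 (-2.17 ± 0.41). The 2 TIM17 paralogs called went opposite ways, TIM17-1 at -0.69 ± 0.16, although that call was lost with scaling by library totals (-0.43) and without AA-labelled replicate 2 (-0.58).

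In the uniporter family itself, 3 of 6 genes tested were called, all lower. MCU6 (AT5G66650) had 707, 826 and 680 in the libraries labelled CK and 159, 167 and 111 in those labelled AA, a difference of -2.35 ± 0.19 (limma adjusted p = 7.7e-05). MICU (AT4G32060) had 5481, 6017 and 5828 against 4458, 3055 and 4003 (-0.61 ± 0.14), and lost its call without AA-labelled replicate 2 (-0.45) or CK-labelled replicate 2 (-0.58) and with library totals (-0.34). MCU2 had 464, 521 and 515 against 676, 639 and 570, without overlap but not called (0.33 ± 0.12), although it was called higher with library totals (0.59). MCU1 and MCU3 overlapped between the groups. In other carriers of calcium, the vacuolar exchanger CAX1 was called higher, with 8316, 8173 and 10889 against 16362, 15140 and 16222. The plasma membrane pumps ACA12 (-1.54 ± 0.26) and ACA10 (-0.78 ± 0.17, but -0.51 and not called with library totals) were lower, and 8 of 11 pumps and exchangers were not called. Of all genes 25.7% were called.

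Small heat shock proteins made up 5 of the 10 largest falls. They are chaperones that hold unfolding proteins for later refolding. All 9 cytosolic members were called lower, with a median of -4.38, and all 5 of organelles, with a median of -5.84. HSP17.4 had 4106, 4064 and 3023 in the libraries labelled CK and 4.79, 272 and 25.8 in those labelled AA. The AA-labelled replicate 2 was thus the highest of its group, yet far below every CK-labelled library. The difference was -6.73 ± 1.11 (limma adjusted p = 0.0023). HSP21 of the chloroplast had 841, 880 and 679 against 3.83, 15.8 and 5.17 (-6.65 ± 0.44). AT1G52560, an HSP20-like chaperone, had 419, 355 and 295 against 0.958, 14.9 and 0, and AT1G53540 had 967, 1222 and 871 against 8.62, 117 and 3.10. ATHSP22.0 of the endoplasmic reticulum had 391, 519 and 329 against 4.79, 19.3 and 2.07. The smallest change was in AT5G51440, an HSP20-like chaperone that is also a stimulon member, at -0.89 ± 0.14.

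The heat shock element was searched as GAANNTTCNNGAA and TTCNNGAANNTTC on both strands in the same windows. It is the site of heat shock factors. Of the 9 cytosolic members 2 held it, HSP17.4 and AT1G53540, or 22.2%, and of the 5 organellar members 0. Of all promoters 0.383% held it, and of those of genes called lower 0.898%. The stretch of HSP17.4, at chr3:16984868-16985006 on the minus strand, holds 2 copies, the nearer one 5 bases before the start, with the fixed bases in capitals.
HSP17.4: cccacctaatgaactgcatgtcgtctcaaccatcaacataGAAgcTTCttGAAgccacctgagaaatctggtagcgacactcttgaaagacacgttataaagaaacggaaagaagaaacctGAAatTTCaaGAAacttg

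Heat shock factors and larger cytosolic chaperones were lower too, 11 of 13 tested. DREB2A, an activator of drought and heat genes, had 1461, 1473 and 1197 against 88.1, 90.4 and 59.9 (-4.11 ± 0.19). HSFA2, a heat shock factor that is itself heat-inducible, had 333, 419 and 283 against 32.6, 86.9 and 40.3. HSP101, the disaggregase of thermotolerance, had 3597, 4735 and 3742 against 565, 777 and 498, and HSP90.1 had 7866, 8236 and 6394 against 1070, 2287 and 928. The constitutive members HSFA1A and HSC70-1 differed by 0.23 ± 0.20 and 0.19 ± 0.16 and were not called.

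Chaperones of the endoplasmic reticulum went the other way. Of 23 genes of the unfolded protein response, 14 were called higher and 3 lower, and the median was 0.77. The 12.8% of all genes called higher is the background of that count. BIP1 and BIP2 code for nearly identical Hsp70 chaperones of the lumen, and could share reads. BIP1 had 6931, 6892 and 7103 in the libraries labelled CK and 16109, 18116 and 14746 in those labelled AA (1.22 ± 0.11), and BIP2 had 4974, 5242 and 4994 against 11696, 12342 and 10520. The calcium-binding lectin chaperones calreticulin and calnexin rose with them. CRT1a had 2568, 2586 and 2735 against 6661, 7253 and 6291 (1.35 ± 0.10, limma adjusted p = 4.8e-05), and CNX1 had 4227, 4292 and 4187 against 10067, 9939 and 8729. P58IPK, a DnaJ partner of BIP, had 307, 315 and 331 against 847, 971 and 754, the largest rise of the list at 1.42 ± 0.13. The protein disulfide isomerases PDIL1-1 and PDIL1-2 rose by 0.77 and 1.01.

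Regulators and markers of that response were mixed. BZIP60, a factor activated by splicing under endoplasmic reticulum stress, had 9064, 10006 and 10031 against 5518, 6248 and 5358 (-0.77 ± 0.11). That call was lost with library totals (-0.51). TIN1, a tunicamycin-induced gene, had 165, 194 and 130 against 40.2, 60.6 and 50.6, and ERDJ3A had 610, 598 and 557 against 274, 291 and 228. BIP3, the inducible BIP, had 63.0, 125 and 77.4 against 52.7, 33.4 and 44.4, a difference of -0.97 ± 0.33 that was not called. NAC103 was called higher, with 71.1, 42.0 and 46.3 against 104, 123 and 126.

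A pair of words was searched before these genes, the endoplasmic reticulum stress element CCAATNNNNNNNNNNCACG and the unfolded protein response element TGACGTGG or TGACGTGA, on both strands. Of 23 members, 6 held the first and 4 the second, against 0.689% and 1.82% of all promoters. The shares were 0.967% and 2.83% among all genes called lower and 0.545% and 1.53% among all genes called higher. The stretches shown are those of called members whose window overlaps no exon of another gene, with the fixed bases of both elements in capitals.
P58IPK: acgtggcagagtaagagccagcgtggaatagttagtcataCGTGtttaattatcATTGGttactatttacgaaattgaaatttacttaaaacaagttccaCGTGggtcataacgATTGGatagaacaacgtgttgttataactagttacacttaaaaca
CRT1a: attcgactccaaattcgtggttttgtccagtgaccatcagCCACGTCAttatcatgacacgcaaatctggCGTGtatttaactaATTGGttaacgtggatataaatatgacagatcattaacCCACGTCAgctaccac
PDIL1-2: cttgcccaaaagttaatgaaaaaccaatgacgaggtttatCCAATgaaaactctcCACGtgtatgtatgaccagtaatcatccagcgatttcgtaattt
PDIL1-1: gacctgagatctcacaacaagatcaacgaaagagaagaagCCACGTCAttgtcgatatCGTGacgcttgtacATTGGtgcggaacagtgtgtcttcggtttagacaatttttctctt
They lie at chr5:749942-750100 (plus strand), chr1:21092710-21092847 (minus strand), chr1:29126544-29126642 (plus strand) and chr1:7645365-7645481 (plus strand). TIN1, one of the 3 genes called lower, also held the second element, in a window that overlaps an exon of AT5G64505.

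**Figure D3:**
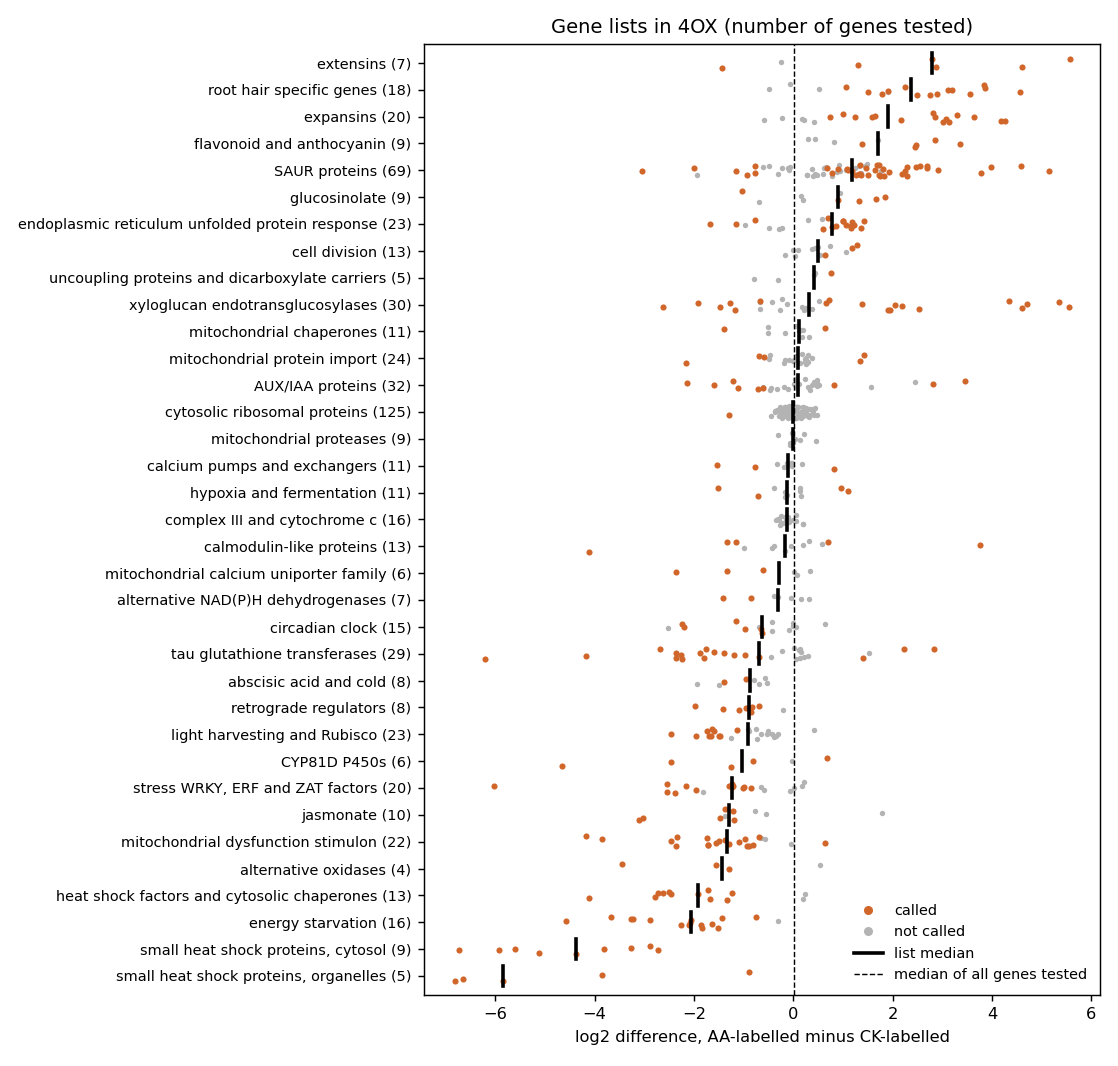
Log2 difference, AA-labelled minus CK-labelled, of every tested member of each gene list other than the markers and organelle genomes, with the number tested in brackets, thick bars for list medians and a dashed line for the median of all genes at 0.02. The small heat shock lists lie lowest (medians -5.84 and -4.38), and the extensins (2.80) and root hair genes (2.37) highest. The extensin and root hair lists were added after their values had been seen.

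Transcription factors of the stress response were lower or uncalled. Of 20 WRKY, ERF and ZAT factors, 13 were called lower and 0 higher, with a median of -1.23. At the far end was RRTF1 (AT4G34410), a redox-responsive ERF also named ERF109, with 213, 192 and 93.4 against 0.958, 6.14 and 0 (-6.03 ± 0.71). WRKY45 had 7698, 7910 and 5897 against 1153, 1386 and 1121, and WRKY75 had 2651, 2039 and 1648 against 283, 520 and 302. ZAT12, a zinc finger factor of oxidative stress, had 7908, 6314 and 5384 against 1052, 1884 and 960. WRKY18, WRKY33, WRKY46, WRKY53 and ERF105 were among the 7 not called, and in WRKY33 the AA-labelled replicate 2, at 8153, was above all CK-labelled libraries.

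Detoxification genes included some of the largest falls. GSTU3 had 3293, 2136 and 2136 in the libraries labelled CK and 21.1, 71.1 and 22.7 in those labelled AA (-6.20 ± 0.42). Of 29 genes in the list of tau-class glutathione transferases, which conjugate toxic compounds to glutathione and of which GSTT1 is of another class, 15 were called lower and 3 higher. The 3 higher were GSTU21, GSTU23 and GSTU28, all at values of 109 or less in every library, and the first 2 lost their calls without AA-labelled replicates 1 or 3 or CK-labelled replicate 2. CYP81D11, a P450 of xenobiotic responses, had 4669, 4312 and 3716 against 191, 92.2 and 266 (-4.65 ± 0.33). The CYP81D family had 4 members called lower and 1, CYP81D3, higher among 6, and the call of CYP81D3 (limma adjusted p = 0.047) was lost with any of the 6 libraries left out.

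Genes of energy starvation were lower almost without exception. These are known to rise in the dark and under low sugar, through the kinase SnRK1. Of 16 tested, 15 were called lower and the other was D2HGDH. DIN2, a beta-glucosidase, had 2631, 2600 and 2178 against 147, 50.0 and 146 (-4.57 ± 0.37), and DIN6, an asparagine synthetase, had 4919, 4952 and 5418 against 785, 139 and 588. MCCA, which breaks down leucine in mitochondria, had 9998, 10576 and 10491 against 1730, 467 and 1556. In these 3 genes the AA-labelled replicate 2 was the lowest library, and without it 14 genes of the list were called lower.

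Light-harvesting genes were lower in part, and the library that stood apart mattered here. Of 23 genes for light-harvesting proteins and Rubisco, 10 were called lower and 0 higher. CAB2, a chlorophyll-binding protein, had 8747, 10568 and 7666 against 2256, 973 and 1914 (-2.47 ± 0.28), and LHCB2.2 had 1851, 2236 and 1802 against 590, 621 and 652. RBCS1A of Rubisco had 47724, 65336 and 63084 against 61768, 20649 and 54520, where only the AA-labelled replicate 2 was below the CK-labelled range. The genes CAB1, CAB2 and CAB3 are close copies and could share reads. Without AA-labelled replicate 2 the median of the list moved from -0.91 to -0.40, and 10 genes were called lower and 1 higher. Summed over the 4 leaf markers, values ran from 73670 to 96876 in the CK-labelled and from 27662 to 81688 in the AA-labelled libraries, with 2 of 4 called lower. In whole seedlings, fewer cells of a type and less RNA per cell cannot be told apart.

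The largest rises were in genes of the cell wall. EXT11, an extensin, had 3.44, 6.81 and 5.05 in the libraries labelled CK and 411, 219 and 243 in those labelled AA (5.56 ± 0.37, limma adjusted p = 3.4e-05). XTH13 and XTH12, neighbouring and closely similar genes for enzymes that cut and rejoin xyloglucan, had 3.44, 13.6 and 4.21 against 369, 330 and 284, and 6.88, 2.27 and 20.2 against 431, 284 and 296. XTH31 had 92.8, 109 and 234 against 5322, 2236 and 3664. The other genes among the 10 largest rises were AT1G19900 (a glyoxal oxidase-related protein), AT5G24313, CYP702A5, EXT13, XTH26 and PRP1, at 4.57 to 5.56. All 10 had at most 278 reads in any CK-labelled library. Among the 10 largest falls, the genes not yet described were AT1G71000 (a DnaJ-domain chaperone, -6.32), AT4G28140 (an integrase-type DNA-binding protein, -6.14) and AT3G25190 (a vacuolar iron transporter family member, -5.93).

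Expansins shared this direction. Of 20 tested, which loosen walls in growing cells, 15 were called higher and 0 lower, with a median of 1.91. EXPA5 had 21.8, 25.0 and 29.5 against 564, 393 and 570 (4.26 ± 0.24), and EXPA8 had 30.9, 97.5 and 103 against 1298, 1033 and 1476. EXPA18, a root hair expansin, had 36.7, 32.9 and 28.6 against 523, 355 and 397. The xyloglucan enzymes were split, with 13 higher and 6 lower of 30. XTH30 had 3775, 4258 and 3067 against 1033, 958 and 936 (-1.91 ± 0.13), and XTH18 fell by 1.48. Without AA-labelled replicate 2, 9 were called lower.

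A list of root hair specific (RHS) genes and one of extensins were added after their values had been seen. Of 18 RHS genes 14 were called higher and 0 lower, and of 7 extensins 5 higher and 1 lower. RHS12, a pectin methylesterase inhibitor family member, had 10.3, 11.3 and 26.1 against 256, 183 and 237, and RHS19, a peroxidase, had 147, 186 and 143 against 1529, 869 and 1237. EXT4 was the extensin called lower, with 50862, 47872 and 41621 against 19791, 19938 and 12817. Root markers moved in the same libraries: 3 of 7 were called higher and 0 lower, and their summed value ran from 25883 to 29625 in the CK-labelled and from 67941 to 85310 in the AA-labelled libraries. Most of that sum was PYK10, a beta-glucosidase, with 22891, 20566 and 24070 against 61827, 79318 and 65278 (1.61 ± 0.16). CASP1 of the endodermis rose by 1.45 and SHR by 0.66, the call of SHR being lost without AA-labelled replicates 1 or 3 or CK-labelled replicates 2 or 3. SCR differed by 0.52 and was below the fold threshold, and MYB36, WOX5 and PHT1-1 differed by -0.42, -0.91 and -0.15 and were not called. The part of root markers in the wall and root hair genes was not tested.

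Of 69 auxin-responsive SAUR genes, small growth-related transcripts, 34 were called higher and 6 lower, with a median of 1.18. AT5G10990 had no read in any library labelled CK and 34.5, 26.3 and 44.4 in those labelled AA, which is at least 11.2-fold higher against 3 reads in each library. AT5G50760 had 1642, 1707 and 1074 against 333, 472 and 293. In the AUX/IAA list, mostly repressors of auxin signalling, 3 of 32 were called higher and 6 lower, beside 12.8% and 12.9% of all genes. Without AA-labelled replicate 2 those counts were 7 and 6. Among the 3 higher, ARF19 (0.82 ± 0.17) is an auxin response factor, not an AUX/IAA protein. IAA16 had 10069, 12285 and 10590 against 5419, 4851 and 4919.

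Flavonoid genes were higher. Of 9 tested, 5 were called higher and 0 lower, with a median of 1.71. Chalcone synthase (CHS), the first enzyme of the pathway, had 136, 225 and 107 in the libraries labelled CK and 1347, 766 and 1197 in those labelled AA (2.84 ± 0.30). Flavonol synthase FLS1 had 81.4, 90.7 and 76.6 against 515, 338 and 564, and chalcone isomerase (CHI) had 260, 244 and 264 against 737, 581 and 692. The anthocyanin regulator PAP1 had no read in the CK-labelled libraries and 15.3, 14.9 and 3.10 in the AA-labelled ones, at least 3.56-fold higher against 3 reads in each library. UF3GT, also among the 5, had no read in the CK-labelled and at most 5 reads in any AA-labelled library. By the same bound it was at least 1.42-fold higher, below the fold threshold. Its call was lost with the replicate block, without any 1 AA-labelled library and without CK-labelled replicate 2. The anthocyanin enzymes DFR and LDOX were near 0 in both groups.

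Of 9 glucosinolate genes, 4 were called higher and 1 lower. MYB28, the regulator of the aliphatic branch, had 201, 252 and 353 against 999, 737 and 1156, and CYP83A1 of that branch had 805, 812 and 977 against 2546, 2445 and 3300. CYP83B1 of the indolic branch had 40590, 46283 and 35791 against 15367, 31948 and 16228 (-1.03 ± 0.27), a call that was lost without AA-labelled replicates 1 or 3 or CK-labelled replicates 1 or 2. MYB29, MAM1 and CYP79F1 of the aliphatic and CYP79B2 of the indolic branch differed by 0.19, 0.16, 0.94 and -0.68 and were not called. In the cell division list 3 of 13 were called higher and 0 lower, with CYCB1-2 at 1.28 ± 0.23, and without AA-labelled replicate 2, or with library totals, 7 and 8 were called higher.

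Hormone and clock lists were lower in part. Of 10 jasmonate genes 6 were called lower, with 8 lower and 1 higher once AA-labelled replicate 2 was left out. Without CK-labelled replicate 1 the calls of JAZ1, JAZ7, JAZ8 and JAZ10 were lost, with limma adjusted p from 0.058 to 0.16, and each other library apart from AA-labelled replicate 2 ended 3 or more of these 4 calls when it was left out. LOX2 had 3531, 3521 and 4326 against 1188, 1739 and 1480, and the biosynthetic reductase OPR3 had 2725, 2994 and 2606 against 1167, 1382 and 1054. The repressors JAZ7 and JAZ8 had values of 94.0 or less in every library and differed by -3.10 and -3.04. COR47 (-1.39 ± 0.30) and ERD10 (-0.96 ± 0.15) were called among 8 genes of abscisic acid and cold, and 6 were called lower without AA-labelled replicate 2. Of 15 clock genes 6 were called lower. PRR7 had 1615, 2031 and 1964 against 299, 558 and 363, and PRR5 had 943, 1079 and 948 against 191, 267 and 195. The morning genes CCA1 and LHY were at 188 or less in all 6 libraries and were not called.

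Genes of low oxygen were mixed, and 1 library decided the reading. ADH1, alcohol dehydrogenase, had 32095, 44121 and 24212 against 16397, 70862 and 22908, and PDC1, pyruvate decarboxylase, had 31123, 38390 and 25799 against 14023, 53906 and 17984. The AA-labelled replicate 2 was the highest library in both genes and the other AA-labelled libraries were the lowest. Neither was called, and without that library both were called lower, at -0.75 and -0.98. HRE1, an ERF of hypoxia, had 533, 719 and 503 against 1192, 1453 and 1106 (1.10 ± 0.16), and HRE2 had 2758, 2795 and 2314 against 599, 1902 and 669 (-1.52 ± 0.38), a call lost without CK-labelled replicates 1 or 2. Among 13 calmodulin-like proteins 2 were called higher and 3 lower, and the touch gene TCH3, with 33872, 36700 and 29274 against 14189, 18113 and 12823, was 1 of the 3.

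Transcripts of the organelle genomes were called in 1 direction where they were called. Of 78 mitochondrial genome genes tested 20 were called lower and 0 higher, and of 102 plastid genome genes 2 were called lower and 0 higher. The medians were -1.03 and 0.10. Both counts stand beside 12.9% of all genes called lower. Of the 2 plastid genes, ATCG00410 had at most 5 reads in any library. Its call was lost in edgeR and DESeq2 and with any library left out. ATCG01020 (-0.63 ± 0.16) lost its call with library totals (-0.37) and without replicate 1 of either group. The 20 mitochondrial genes had mean values from 6.03 to 169 in the CK-labelled and from 0.293 to 63.9 in the AA-labelled libraries. The gene with the largest fall, ATMG01010, had 8.02, 12.5 and 8.41 against 0, 1.76 and 0.

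Whether 4OX responded differently from wild type was tested as an interaction, 4OX minus Col, over the 12 libraries of both genotypes on one scale. Headings of the Col and 6OX libraries were not compared between tables here. The table of 4OX against Col also holds Col columns headed CK, but only its 4OX columns were compared, so a conflict in the Col headings was not tested. A swap of headings in a single genotype would change which genes are called, not only the sign. A swap in both genotypes of a comparison would change the sign alone. Of 22785 genes 97 (0.426%) were called, 57 with a positive and 40 with a negative difference. Organelle genomes supplied 40 of the 57. In Col those 40 differed by -6.97 to -2.84, and in 4OX by -0.56 to 1.93. The Col libraries labelled CK had nuclear ribosomal RNA at 1.47% to 6.24% and organelle reads at 0.608% to 2.46%, and 11.84 to 21.49 times 1e6 reads. Those labelled AA had 0.0531% to 0.0678%, 0.0410% to 0.0474% and 32.42 to 34.56 times 1e6 reads. The part of this imbalance in the interaction was not tested gene by gene, but with organelle and ribosomal RNA genes left out limma called 0 genes, with 2817 at an unadjusted p under 0.05 and a lowest adjusted p of 0.081. edgeR, with those genes kept, called 134. The count also rested on single libraries. It was 7 without CK-labelled replicate 2 of 4OX, 27 without CK-labelled replicate 1, 63 without CK-labelled replicate 3, 30 and 40 without AA-labelled replicates 1 and 3, and 374 without AA-labelled replicate 2.

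By the RefSeq annotation, 3 of the nuclear genes called were for ribosomal RNA, and the other 54 had 14 positive and 40 negative differences. Of the 14, AT2G01021, AT2G07698, AT2G07712 and AT2G07727 had differences of -7.81 to -3.46 in Col, within or below the range of the organelle genes, and -0.98 to 0.24 in 4OX, which leaves 10. In the endoplasmic reticulum list 2 were called, and these were chosen for naming after their values were seen. CRT1b differed by 1.16 in 4OX and 0.36 in Col, and P58IPK by 1.43 in 4OX and 0.56 in Col. The differences of 0.80 ± 0.12 and 0.87 ± 0.17 had limma adjusted p of 0.015 and 0.046. Over the alternatives, in limma and edgeR, adjusted p ran from 0.012 to 0.081 and from 0.035 to 0.14. CRT1b was called in 9 and P58IPK in 6 of the 13 alternatives. Against 6OX neither was called, at 0.28 and 0.72, nor in any of the 13 alternatives. PCO1 (AT5G15120), a plant cysteine oxidase of the hypoxia list, differed by 0.13 in 4OX and 1.11 in Col. No member of the stimulon, the alternative oxidases, the small heat shock lists, the energy starvation list or the expansins was called in this test. AOX1A differed by -1.56 in 4OX and -0.99 in Col, with an adjusted p of 0.31 for the interaction in limma, and AOX1D by -3.43 and -1.98, with 0.14. Both were thus lower in the AA-labelled libraries of Col too, while the study reports that AA induces AOX1A. The median of the stimulon was -1.32 in 4OX and -0.83 in Col.

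Against 6OX the interaction called 2 of 22916 genes, or 0.00873%. LAC7, a laccase, was one. On the scale of that fit it had 664, 981 and 738 in the CK-labelled and 280, 284 and 310 in the AA-labelled libraries of 4OX, and 205, 151 and 174 against 350, 311 and 419 in 6OX. It was lower in AA-labelled libraries of 4OX (-1.43) and higher in those of 6OX (1.02). The difference was -2.45 ± 0.25 (limma adjusted p = 0.0051, from 0.0028 to 0.039 over the alternatives in limma and edgeR). GTR1, a glucosinolate transporter, went the opposite way. It had 152, 155 and 196 against 295, 314 and 308 in 4OX and 856, 720 and 659 against 373, 386 and 409 in 6OX. That difference was 1.80 ± 0.21 (limma adjusted p = 0.011, from 0.0084 to 0.062 over the same alternatives), and it was called in 10 of 13 alternatives. Both genes were called against Col as well, at -3.74 ± 0.61 and 1.32 ± 0.24, LAC7 in 8 and GTR1 in 7 of the 13 alternatives. Over those alternatives, in limma and edgeR, adjusted p ran from 0.011 to 0.11 and from 0.030 to 0.14. Both comparisons use the same 6 libraries of 4OX. With 3 libraries per group, a p that misses the threshold does not show that the lines responded alike.

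**Figure D4:**
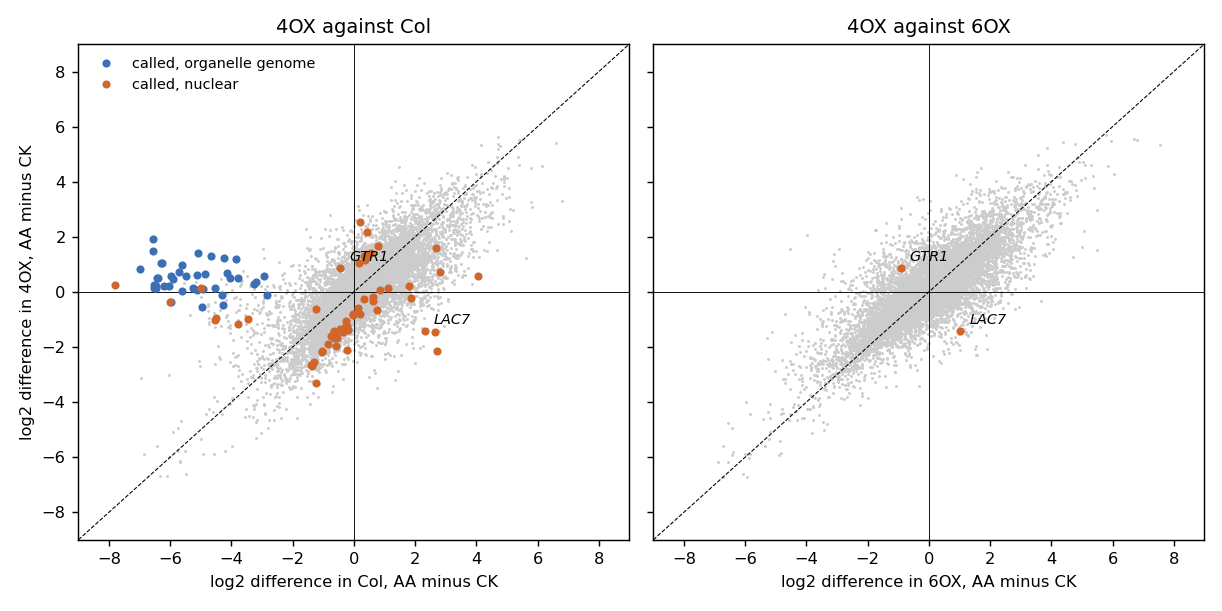
Log2 difference, AA-labelled minus CK-labelled, in 4OX (vertical) against that in Col (left) and 6OX (right), with a point per gene and a dashed line where both are equal. The 40 called organelle genes lie at -6.97 to -2.84 in Col but at -0.56 to 1.93 in 4OX, and only LAC7 and GTR1 are called against 6OX.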

How the data were processed

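Whole seedlings were sequenced, in 3 libraries per group, which the study calls biological replicates. Whether they were separate cultures is not given in the sources used here, so p-values measure the spread between these samples. Bowtie 0.12.2 and TAIR10 stand in the submitters' processing notes. The counting tool and strand setting are not given in the sources used here. The tables the authors deposited hold a signal per gene, read counts divided by size factors, and the authors' own fold changes and p-values, which were not used. Steps between low values gave each library's size factor, and with it whole counts (within 0.01) for 492066 of 492066 values, or 100%, in the 4 tables used.

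Genes with a mean of 1 or more were tested with limma 3.58.1 (R 4.3.3), with a mean-variance trend, on log2(value + 1), which understates changes of low genes. Tests were two-sided, Benjamini-Hochberg adjusted over all genes, and called where the adjusted p was below 0.05 and the change above 1.5-fold. Interactions used recovered reads with joint median-of-ratios factors. edgeR 4.0.16 and DESeq2 1.42.0 on recovered reads, other pseudocounts, filters, scalings, a replicate block, stricter thresholds and each library left out were alternatives. Functions were tested on simulated counts. Replicate numbers did not pair the libraries (correlations of deviations -0.018, 0.011 and 0.081).

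Of 23612 IDs, 23381 matched TAIR10.1 (RefSeq). Its coordinates are those of the reference genome, not of the tables. Members and lists were chosen with earlier results of these data known; the ribosomal list is the study's. Named were MCU4, AOX1A, AOX1D, the 10 largest rises and falls among called genes with a mean of 50 or more and no overlap, up to 3 called genes each way per list, any member of lists up to 12 genes, 5 each way per interaction, and promoters of called members with a motif. Other members were named after their values were seen.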

Additional observations from a re-analysis of the deposited data

Results flagged for a closer look

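The following results differed between 4OX and another genotype by the interaction test in limma. They rest on headings that were compared between tables for 4OX alone. Against Col 97 genes were called. Among those with a mean of 50 or more the most negative differences, 4OX minus Col on the log2 scale, were LAC7 at -3.74, MYB27 at -3.45, AT2G45360 at -2.09, GLP4 at -2.09 and OPR1 at -2.07. MYB27 differed by 0.59 in 4OX and 4.04 in Col. GLP4, a germin-like protein, differed by 0.71 and 2.80. OPR1, an oxophytodienoate reductase, differed by -3.31 and -1.24.

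The most positive were AT2G01021 at 8.05, and the plastid genes ATCG00960 at 8.06, ATCG01090 at 7.80, ATCG00270 at 7.36 and ATCG00300 at 7.29. ATCG00960 had no read in the CK-labelled libraries of 4OX and 13.4, 0 and 1.03 in those labelled AA. AT2G01021, annotated as protein coding, had 98053, 20257 and 124451 in the CK-labelled and 212, 351 and 294 in the AA-labelled libraries of Col. The share of organelle reads was larger in the CK-labelled libraries of Col, and its part in these differences was not tested.

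Against 6OX 2 genes were called, LAC7 at -2.45 and GTR1 at 1.80. Groups of 3 libraries are too small for a test of single libraries as outliers.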

How the results depend on the processing

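Among the 240 named genes, 178 kept their side of the threshold in every alternative, and of 4051 alternative values 165 fell short of a call held before, 38 gained one and 0 changed sign with a call. Leaving out a library made 111 of the 165 losses. Each library left out in turn gave 4667 to 6725 genes called, 2263 to 3375 higher and 2359 to 3350 lower. At a fold over 2 and an adjusted p under 0.01, 2650 were called, 1227 higher and 1423 lower. Library totals gave 5157 higher and 1979 lower. edgeR called 5811 and DESeq2 6204.

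The interaction with Col called 1 gene without a mean-variance trend and 0 with organelle and ribosomal RNA genes left out, and 7 to 374 as each 4OX library was left out. That with 6OX called 1 to 2 with a library left out. Replicate numbers did not pair the libraries: with the replicate block 5757 genes were called, 2787 higher and 2970 lower, and the interactions called 232 against Col and 3 against 6OX. With organelle and ribosomal RNA genes left out, fewer genes were tested; the causes of the other moves were not tested. The contradiction of the headings limits every sign and both interactions. Values near 1 read limit the low genes, and counts cannot separate close copies.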
